A study of Mus musculus with 7 samples.

Results

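The expression of 45 genes that carry out DNA replication was examined in hematopoietic stem cells (HSCs) after deletion of Cebpa, which encodes the transcription factor C/EBPα. The genes were chosen by name for their roles in origin licensing, fork assembly and progression, and the supply of deoxynucleotides, and all 45 were measured among the 19938 genes tested. HSCs were sorted by FACS as Lin-, Sca1+, cKit+, CD150+ and CD48- cells from the bone marrow of adult female C57BL/6 mice. Cebpa Δ/Δ mice (n = 4) were Cebpa flox/flox;Mx1Cre animals, and Cebpa fl/fl mice (n = 3) carried the same loxP-flanked alleles without Cre. Every mouse of both genotypes received pIpC, an inducer of interferon that switches on Mx1Cre, and HSCs were taken at day 18. Mx1Cre recombines in many interferon-responsive cells and not in HSCs alone, so other cells of these mice could lack Cebpa too. The labels do not say that cells of several mice were pooled, and each array is named here by genotype and replicate number.

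Replication begins in G1, when the origin recognition complex (ORC), Cdc6 and Cdt1 load the Mcm2 to Mcm7 helicase onto DNA. In S phase Cdc45 and the GINS complex activate the helicase, the primase and polymerases copy both strands, and the sliding clamp PCNA holds polymerases and their partners on the DNA. Most adult HSCs are out of cycle in G0, where the licensing and nucleotide genes are transcribed at low levels, and E2F transcription factors raise many of them as cells commit to S phase.

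Promoter sites are shown first because most of these genes with promoter windows held a motif of E2F, the factor tied to this gene set. RefSeq promoter windows of the build GRCm38.p6, from 250 bases before to 50 bases after each start site, were available for 37 of the 45 genes. The sequences are written 5′ to 3′ on the strand given, with the motif in capitals, for some of the genes whose array values are given in full below.
Mcm6, E2F core, chr1:128359798-128359824, minus strand: gcgtatgcttTTGGCGCgaaaagtgcg
Rfc4, E2F core, chr16:23127703-23127729, plus strand: ggcaccgcggTTCCCGCcacagaacgg
Fen1, E2F core, chr19:10203939-10203965, minus strand: caggaggctgTTCGCGCctggcagatc
Lig1, E2F core, chr7:13279258-13279284, minus strand: ccctcttctcTTGGCGCcactaattct
Rrm1, E2F core, chr7:102441618-102441644, plus strand: ggagaactcgTTCCCGCcaggtccgct
Uhrf1, E2F core, chr17:56303279-56303305, plus strand: gctttctcgcTTCCCGCcacagcgcca
Orc2, CCAAT box, chr1:58501457-58501481, plus strand: aggggtcacaCCAATggtcaagtta
Pcna, CCAAT box, chr2:132253253-132253277, plus strand: tcctcaaggaCCAATcgtacccgtg

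An E2F core was searched on either strand as the letters TTGGCGC, with the variants TTCCCGC, then TTCGCGC, and also TTGCCGC. It was present in 24 of the 37 replication genes (64.9%) and in 14.7% of the 15614 genes tested that had a window. A gene counted once if any of its windows held the motif, and 6 of the 37 had 2 or more start sites. Genes with more start sites had more chances of a hit. The shares were not matched on base composition, and the core is rich in C and G. By role, the core was found in 7 of 10 licensing genes, 1 of 3 helicase activation genes, 3 of 5 clamp and loader genes, 4 of 6 polymerase and primase genes, 4 of 5 single-strand and flap genes, 2 of 5 nucleotide supply genes and 3 of 3 chromatin genes. Mcm6 held the core on both strands at overlapping positions, TTGGCGC beginning 109 bases before the start site on the gene's own strand. A CCAAT box (CCAAT on either strand) was also found in 24 of the 37, against 41.7% of all genes with a window. The cell cycle homology region (CHR, TTTGAA or TTCGAA on either strand) was found in 7 of the 37 (18.9%), against 19% of all genes with a window. The promoters of 25 mitosis genes, which peak later in the cycle, had a different make-up, with an E2F core in 4 (16%), a CCAAT box in 20 (80%) and a CHR in 20 (80%). Genes with an E2F core had a median log2 fold change of 0.18 in Cebpa Δ/Δ over Cebpa fl/fl, and those without it 0.12. Orc2, the one gene past the thresholds below, held a CCAAT box but none of the E2F core letters in its windows.

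**Figure D1:**
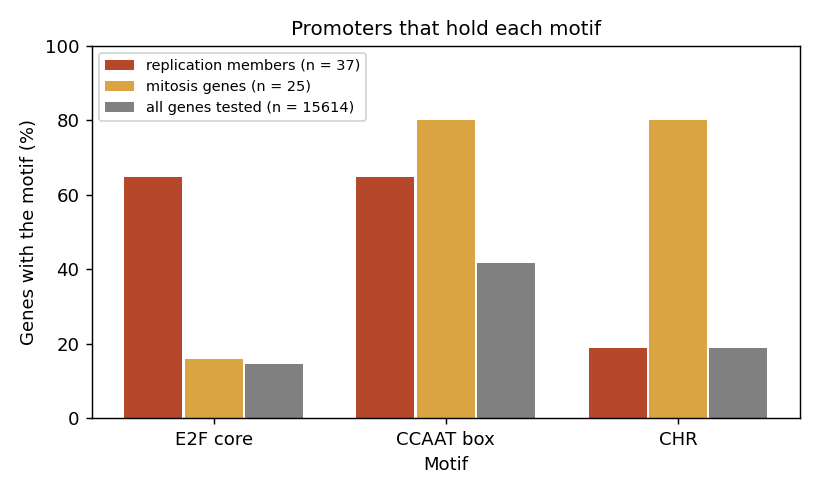
Percentage of genes (vertical axis) whose RefSeq promoter windows hold an E2F core, a CCAAT box or a CHR (horizontal axis), for the replication genes, mitosis genes and all genes tested. The E2F core stood at 64.9% of replication genes against 14.7% of all genes with a window, while the CHR stood at 18.9% against 19%.

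After the authors' normalization, which equalises the arrays, their median intensities lay between 46.2 and 50.4. Cebpa read lower on every Cebpa Δ/Δ array, with 5.11 to 5.27 in Cebpa Δ/Δ and 5.54 to 5.75 in Cebpa fl/fl HSCs on the log2 scale. Its log2 fold change was -0.41 (SE 0.07, limma adjusted p 0.337). Both ranges lay below the median level of all genes (5.86), so the extent of deletion cannot be read from them. Of the HSC markers, Kit measured 9.75 to 10.38 in Cebpa Δ/Δ and 10.39 to 10.46 in Cebpa fl/fl HSCs (log2), and all 12 that were measured had a fitted change below 0, while Ly6a, which encodes Sca1, was not analysed here. Against the CD48- gate, Cd48 read 8.15, 7.70, 8.82 and 6.40 on Cebpa Δ/Δ arrays 1 to 4, and 4.82, 5.61 and 4.62 on Cebpa fl/fl arrays 1 to 3, on the log2 scale. Erythroid transcripts differed widely: 19 of the 20 markers measured passed the study's thresholds upward and their summed intensity was 8974 to 15639 in Cebpa Δ/Δ and 2898 to 5137 in Cebpa fl/fl HSCs. Neutrophil transcripts ran the other way, with 10 of 15 markers lower at the study's thresholds, a summed intensity of 1550 to 2436 in Cebpa Δ/Δ and 7981 to 21383 in Cebpa fl/fl HSCs, and S100a8 at 5.64 to 8.76 in Cebpa Δ/Δ and 11.53 to 12.26 in Cebpa fl/fl HSCs (log2). Of 16 lymphoid markers 8 were higher at those thresholds, with a summed intensity of 1126 to 1463 in Cebpa Δ/Δ and 595 to 773 in Cebpa fl/fl HSCs. Arrays fl/fl 1 and Δ/Δ 3 correlated least with the others. In bulk RNA, a change in the number of cycling or erythroid cells and a change in RNA per cell cannot be told apart.

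The replication genes were measured well within the range of the array, all 45 above the median level of all genes, yet differed little between genotypes. The study's thresholds ask for P under 0.05 together with more than a 1.5-fold change. The study does not say whether P was adjusted, and an unadjusted limma p was used here. A single gene, Orc2, was higher in Cebpa Δ/Δ HSCs at these thresholds, where 1.57% of all genes were higher. None was lower at those thresholds, where 0.617% of all genes were lower. At an unadjusted p under 0.05 alone, 4 replication genes were higher (Orc2, Gins4, Rfc4 and Dut) and 0 lower, against 4.4% and 3.08% of all genes. In the same fit without limma's moderation of variances, p was 0.0111 for Orc2. It was above 0.05 there for Gins4 (0.0719), Rfc4 (0.0799) and Dut (0.0609). With limma and Benjamini-Hochberg adjustment over all genes, 0 replication genes and 0 genes overall passed an adjusted p of 0.05.

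The fitted changes nevertheless leaned upward. Of the 45 genes, 38 (84.4%) had a log2 fold change above 0, against 49.7% of all genes, and the median was 0.16 (range -0.17 to 0.60), against 0.00 over all genes. The 45 values come from the same 7 arrays and are not independent of each other. The count above 0 was 28 without fl/fl 3, 35 without Δ/Δ 1 or without Δ/Δ 3, and 39 to 41 without any other single array. Without fl/fl 3 the median was 0.06, without Δ/Δ 1 it was 0.07 and without Δ/Δ 3 it was 0.10, while without Δ/Δ 4 it was 0.27, so the size of the lean rested on these arrays. With replicate number as a block it was also 0.27. The block takes Δ/Δ 4 out of the estimate, as no fl/fl array shares its number, so this is no separate result.

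**Figure D2:**
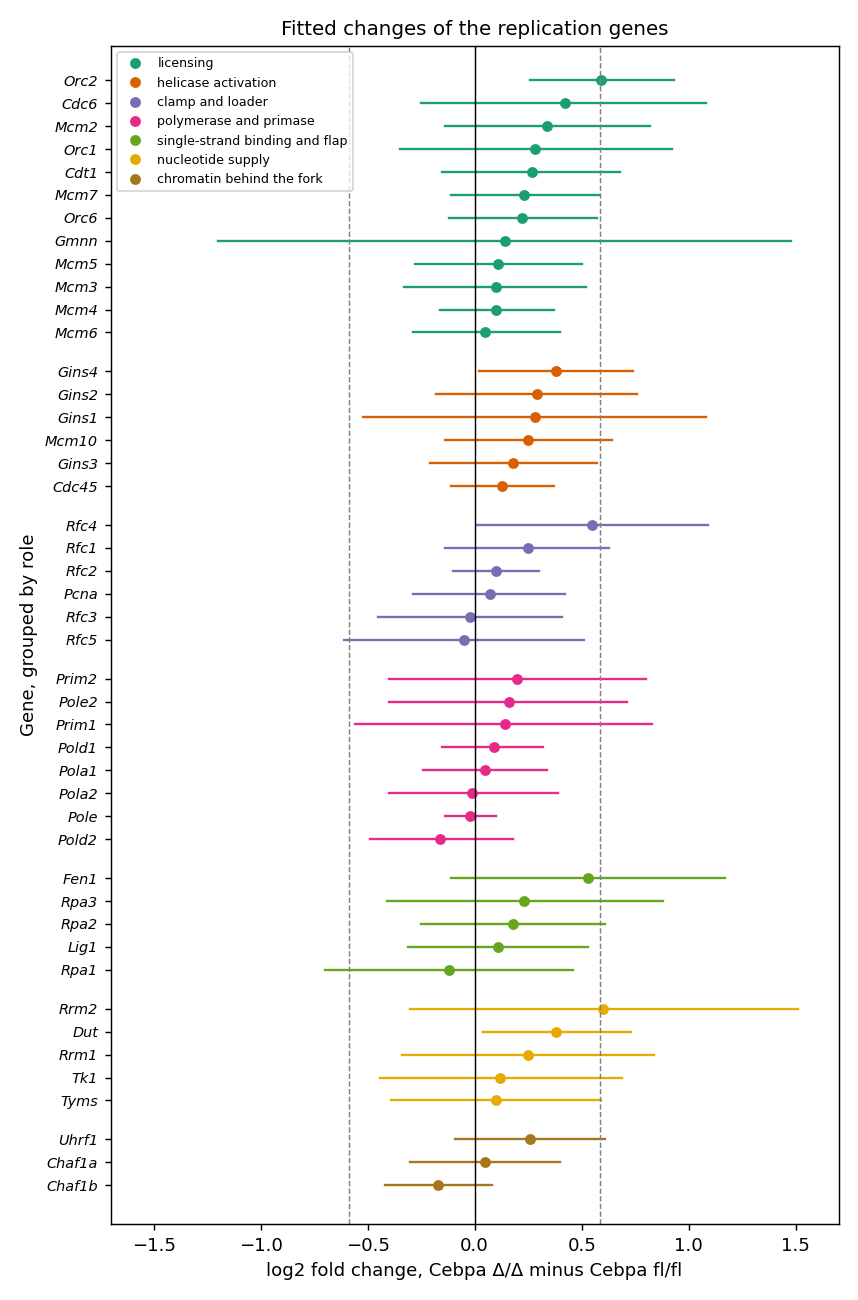
Fitted log2 fold change of each replication gene in Cebpa Δ/Δ over Cebpa fl/fl HSCs (horizontal axis), with genes grouped by role and sorted by size (vertical axis). Points are limma estimates, lines their 95% intervals and dashed lines a 1.5-fold change, and only the intervals of Orc2, Gins4, Rfc4 and Dut lie wholly above 0.

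The licensing genes all lay above 0 (12 of 12, median log2 fold change 0.23, range 0.05 to 0.59), with 1 past the study's thresholds. The group's median was 0.08 without fl/fl 3 and 0.14 without Δ/Δ 1. Orc2 (probe set 10354845), a subunit of the ORC that marks origins, measured 8.0, 7.64, 7.77 and 7.50 in Cebpa Δ/Δ 1 to 4, and 7.06, 7.33 and 7.01 in Cebpa fl/fl 1 to 3, as log2 intensity. All 4 Cebpa Δ/Δ arrays were above all 3 Cebpa fl/fl arrays, and Orc2 was the only replication gene without overlap, where 3.51% of all genes were higher without overlap. In the other direction 0 replication genes and 2.46% of all genes did not overlap. The log2 fold change was 0.59 (SE 0.14, 95% interval 0.26 to 0.93, 1.51-fold), with a limma p of 0.00427, an adjusted p of 0.486, and 0.0286 in the exact two-sided permutation test, the smallest value that 7 arrays allow. Orc2 stood just past the 1.5-fold line and dropped under it without fl/fl 1 (log2 fold change 0.56), fl/fl 3 (0.53), Δ/Δ 1 (0.50) or Δ/Δ 3 (0.58), and without both fl/fl 1 and Δ/Δ 3 it was 0.54 with a limma p of 0.0504. Of its partners, Orc1 and Orc6 belonged to the licensing group and did not pass the test. Their log2 fold changes were 0.28 for Orc1 (SE 0.26) and 0.22 for Orc6 (SE 0.14). The subunits Orc3, Orc4 and Orc5, listed with the other replication genes below, lay below 0 and did not pass it either. Their log2 fold changes were -0.03 for Orc3 (SE 0.09), -0.28 for Orc4 (SE 0.21) and -0.01 for Orc5 (SE 0.16).

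The helicase subunits showed smaller differences. Mcm6 (probe set 10357436), the licensing gene with the highest mean, measured 9.46, 9.39, 9.61 and 9.26 in Cebpa Δ/Δ 1 to 4, and 9.65, 9.38 and 9.09 in Cebpa fl/fl 1 to 3, as log2 intensity. The Cebpa Δ/Δ arrays lay inside the range of the Cebpa fl/fl arrays, and the log2 fold change was 0.05 (SE 0.15, 95% interval -0.29 to 0.40), turning to -0.09 without fl/fl 3. Across Mcm2 to Mcm7 the log2 fold changes ran from 0.05 to 0.34 with a median of 0.10, and none passed the test. Of the factors that load and restrain the helicase, the loader Cdc6 had a log2 fold change of 0.42 (SE 0.28) and Cdt1, which brings the helicase to origins, 0.27 (SE 0.17). Gmnn encodes geminin, which binds Cdt1 and blocks a second round of loading. It was the least even gene, at 6.50, 5.92, 7.76 and 5.90 in Cebpa Δ/Δ 1 to 4, and 7.25, 5.82 and 6.08 in Cebpa fl/fl 1 to 3 (log2), so that one array of each genotype stood high and its interval of -1.20 to 1.48 left the direction undetermined.

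The genes that activate the helicase also lay above 0 without exception (6 of 6, median log2 fold change 0.26, range 0.13 to 0.38), with 0 past the study's thresholds and a median of 0.17 without Δ/Δ 1. Gins4 (probe set 10577623), a subunit of the GINS complex, measured 8.16, 7.86, 8.28 and 7.76 in Cebpa Δ/Δ 1 to 4, and 7.79, 7.64 and 7.48 in Cebpa fl/fl 1 to 3, as log2 intensity. Only Δ/Δ 4 fell below the highest Cebpa fl/fl array. The log2 fold change was 0.38 (SE 0.15, 95% interval 0.02 to 0.74), with a limma p of 0.0432 and an adjusted p of 0.663. The limma p was above 0.05 without fl/fl 2 (0.0952), fl/fl 3 (0.14), Δ/Δ 1 (0.101) or Δ/Δ 3 (0.0865), and the exact permutation p was 0.114. Gins2 (probe set 10582190), also a GINS subunit and the gene of this role with the highest mean, measured 8.70, 8.16, 8.58 and 7.98 in Cebpa Δ/Δ 1 to 4, and 7.86, 8.16 and 8.16 in Cebpa fl/fl 1 to 3 (log2). Δ/Δ 1 and Δ/Δ 3 were above all Cebpa fl/fl arrays and the others were not, and the log2 fold change of 0.29 (SE 0.20) did not pass the test. Cdc45, the partner of GINS in the active helicase, was among the steadiest genes, with a log2 fold change of 0.13 (SE 0.10, 95% interval -0.11 to 0.37).

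Among the clamp and its loader (4 of 6 above 0, median log2 fold change 0.08, range -0.05 to 0.55), 0 genes passed the study's thresholds and Rfc4 came nearest. The median was 0.04 without fl/fl 3 or without Δ/Δ 1, and 0.15 without fl/fl 2 or without Δ/Δ 4. Rfc4 (probe set 10438690), a subunit of the replication factor C complex that opens PCNA and places it on DNA, measured 8.17, 7.52, 8.09 and 7.39 in Cebpa Δ/Δ 1 to 4, and 7.16, 7.47 and 7.09 in Cebpa fl/fl 1 to 3, as log2 intensity. Δ/Δ 1 and Δ/Δ 3 were clearly above all Cebpa fl/fl arrays, whereas Δ/Δ 4 lay below fl/fl 2. The log2 fold change was 0.55 (SE 0.22, 95% interval 0.01 to 1.09, 1.47-fold), with a limma p of 0.0461 and an adjusted p of 0.663. The value moved both ways with single arrays. It passed 1.5-fold when array medians were subtracted (0.60) and when fl/fl 2 (0.67), Δ/Δ 2 (0.64) or Δ/Δ 4 (0.69) was left out, whereas the limma p was above 0.05 without fl/fl 1 (0.123), fl/fl 3 (0.135), Δ/Δ 1 (0.0993) or Δ/Δ 3 (0.107), and with a replicate block (0.0606). The exact permutation p of Rfc4 was 0.143. The other subunits Rfc1, Rfc2, Rfc3 and Rfc5 had log2 fold changes of 0.25, 0.10, -0.02 and -0.05, none past the test. Pcna was read by a pair of probe sets with nearly the same values, and since Pcna pseudogenes lie elsewhere in the genome, RNA from such copies cannot be told apart from it here. The brighter one (probe set 10461391) measured 11.10, 10.88, 11.36 and 10.79 in Cebpa Δ/Δ 1 to 4, and 11.10, 10.93 and 10.86 in Cebpa fl/fl 1 to 3 (log2). The genotypes overlapped throughout, and the log2 fold change of 0.07 (SE 0.15, 95% interval -0.29 to 0.42) lay within 1.5-fold either way, and it was -0.04 without Δ/Δ 3.

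**Figure D3:**
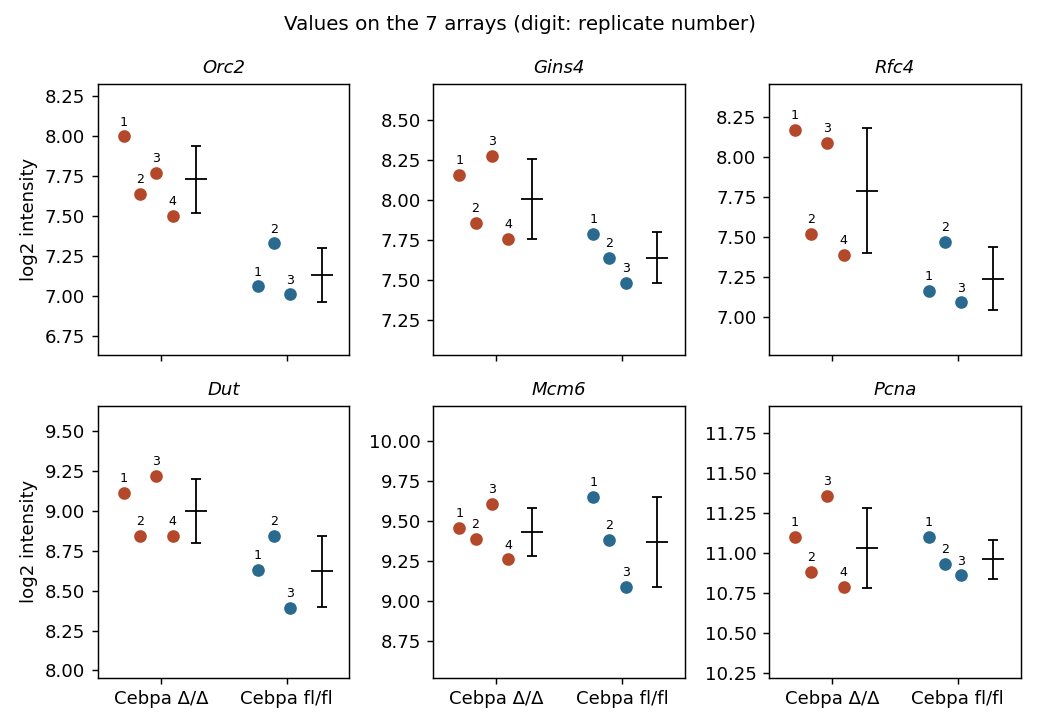
Log2 intensity (vertical axis) of the 4 genes with an unadjusted p under 0.05 and of Mcm6 and Pcna, in Cebpa Δ/Δ (left) and Cebpa fl/fl (right) HSCs. Points are arrays with their replicate number, and lines give the mean ± SD. Only for Orc2 do the genotypes not overlap.

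The polymerase and primase genes differed little between genotypes (5 of 8 above 0, median log2 fold change 0.07, range -0.16 to 0.20), with 0 past the study's thresholds or at an unadjusted p under 0.05. The median was -0.02 without fl/fl 3 and -0.01 without Δ/Δ 1. Pold2 (probe set 10384032), the accessory subunit of DNA polymerase δ, had both the smallest p and the highest mean of the group. It measured 8.71, 8.57, 8.38 and 8.40 in Cebpa Δ/Δ 1 to 4, and 8.90, 8.70 and 8.40 in Cebpa fl/fl 1 to 3, as log2 intensity. The values overlapped, and the log2 fold change was -0.16 (SE 0.14, limma p 0.299). Pole, the catalytic subunit of DNA polymerase ε, varied least of all the replication genes, with 7.53 to 7.68 in Cebpa Δ/Δ and 7.62 to 7.64 in Cebpa fl/fl HSCs and a 95% interval of -0.14 to 0.10 (log2). The primase subunits Prim1 and Prim2, which lay the RNA primers, ranged more widely, from 7.97 to 9.06 and from 6.27 to 7.08 on the log2 scale within Cebpa Δ/Δ, and their log2 fold changes were 0.14 for Prim1 (SE 0.29) and 0.20 for Prim2 (SE 0.25).

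Of the genes that protect single strands and finish Okazaki fragments, 4 of 5 lay above 0 (median log2 fold change 0.18, range -0.12 to 0.53) and 0 passed the study's thresholds. The median was -0.02 without fl/fl 3, 0.07 without Δ/Δ 1 and 0.28 without Δ/Δ 2. Fen1 (probe set 10465912), the nuclease that removes the flap left at the end of each fragment, measured 7.30, 6.73, 7.51 and 6.84 in Cebpa Δ/Δ 1 to 4, and 6.71, 6.89 and 6.08 in Cebpa fl/fl 1 to 3 (log2). Δ/Δ 1 and Δ/Δ 3 were again highest and fl/fl 3 lowest, and the log2 fold change of 0.53 (SE 0.27) had a limma p of 0.0883 and was 0.29 without fl/fl 3. Lig1 (probe set 10550102), the ligase that seals the nick, measured 8.59, 8.40, 8.51 and 7.98 in Cebpa Δ/Δ 1 to 4, and 8.44, 8.34 and 8.01 in Cebpa fl/fl 1 to 3 (log2). Both the highest and the lowest array were Cebpa Δ/Δ, with a log2 fold change of 0.11 (SE 0.17) that was -0.02 without fl/fl 3. The 3 subunits of the single-strand binding protein RPA had log2 fold changes of -0.12 (Rpa1), 0.18 (Rpa2) and 0.23 (Rpa3), none past the test.

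All 5 nucleotide supply genes lay above 0 (median log2 fold change 0.25, range 0.10 to 0.60), with 0 past the study's thresholds. The median was 0.08 without fl/fl 3, 0.10 without Δ/Δ 3, 0.39 without fl/fl 1 and 0.40 without Δ/Δ 4. Dut (probe set 10475610), which encodes the dUTPase that keeps uracil out of DNA, measured 9.11, 8.84, 9.22 and 8.84 in Cebpa Δ/Δ 1 to 4, and 8.63, 8.84 and 8.39 in Cebpa fl/fl 1 to 3, as log2 intensity. Δ/Δ 2 and Δ/Δ 4 read the same as fl/fl 2, and the remaining Cebpa Δ/Δ arrays were higher than all Cebpa fl/fl arrays. The log2 fold change was 0.38 (SE 0.14, 95% interval 0.04 to 0.73), with a limma p of 0.0355 and an adjusted p of 0.663. The limma p was above 0.05 without fl/fl 1 (0.0801), fl/fl 3 (0.121), Δ/Δ 1 (0.0839) or Δ/Δ 3 (0.0787) and with a replicate block (0.098), and the exact permutation p was 0.171. Ribonucleotide reductase makes deoxynucleotides from ribonucleotides, and its catalytic subunit Rrm1 (probe set 10555695) measured 9.66, 9.44, 9.97 and 9.09 in Cebpa Δ/Δ 1 to 4, and 9.66, 9.27 and 8.95 in Cebpa fl/fl 1 to 3 (log2). The genotypes overlapped widely and the log2 fold change was 0.25 (SE 0.25). The other subunit, Rrm2, which is made mainly in S phase, had the largest fitted change of the 45 genes, 0.60 on the log2 scale, with an SE of 0.38 and a limma p of 0.156. Rrm2 read 9.39, 8.35, 9.16 and 8.08 in Cebpa Δ/Δ 1 to 4, and 8.35, 8.43 and 7.64 in Cebpa fl/fl 1 to 3 (log2), so that its change came with a range of 1.32 within Cebpa Δ/Δ. Tyms, which makes dTMP, had a log2 fold change of 0.10 (SE 0.20). The salvage kinase Tk1 had one of 0.12 (SE 0.24) on the brighter of its probe sets and a difference of -0.24 on the other, so its direction was not settled.

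The chromatin genes, which repackage the DNA behind the fork, had a median log2 fold change of 0.05 (-0.07 without Δ/Δ 1) and 0 past the study's thresholds. Uhrf1 (probe set 10446074), which reads half-methylated DNA and recruits the maintenance methylase, measured 9.13, 8.95, 9.07 and 8.78 in Cebpa Δ/Δ 1 to 4, and 8.64, 9.02 and 8.51 in Cebpa fl/fl 1 to 3 (log2). Array fl/fl 2 lay among the Cebpa Δ/Δ values, and the log2 fold change was 0.26 (SE 0.15, limma p 0.12). Of the histone chaperone subunits, Chaf1a had a log2 fold change of 0.05 (SE 0.15) and Chaf1b one of -0.17 (SE 0.11), the lowest of the 45.

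The precision of these comparisons varied between genes. For 19 of the 45 the 95% interval lay wholly within 1.5-fold in either direction, among them Pcna, Mcm6, Mcm4 and Pole. For 24 it reached a 1.5-fold rise, Orc2 among them, and for 3 a 1.5-fold fall, so a change of that size was not excluded there. In 43 of the 45 the range within the 4 Cebpa Δ/Δ arrays exceeded the difference between genotypes. These ranges ran from 0.15 to 1.87 on the log2 scale, with a median of 0.58. No share over all genes stands beside the counts of this paragraph, so they cannot be read as particular to the replication genes.

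The spread within Cebpa Δ/Δ followed the same arrays in gene after gene. Δ/Δ 1 or Δ/Δ 3 was the highest of the 7 arrays for 36 of the 45 replication genes (80%), against 28.6% of all genes. Both were above Δ/Δ 2 and Δ/Δ 4 for 32 genes (71.1%), against 13.8% of all genes. At the other end, fl/fl 3 was the lowest array for 26 (57.8%), against 13.6% of all genes. The mean of the 45 genes, each centred on its own mean, was 0.31, -0.07, 0.24 and -0.17 in Cebpa Δ/Δ 1 to 4, and 0.02, -0.01 and -0.32 in Cebpa fl/fl 1 to 3, on the log2 scale. Thus Δ/Δ 2 and Δ/Δ 4 lay below fl/fl 1 and fl/fl 2, and the genotypes overlapped. The order was shared by the role groups, with Δ/Δ 1 and Δ/Δ 3 highest and fl/fl 3 lowest for the licensing, helicase activation, clamp, polymerase, single-strand and nucleotide groups. The chromatin group had Δ/Δ 4 lowest at -0.20, and fl/fl 2 at 0.10 above Δ/Δ 3 at 0.06.

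**Figure D4:**
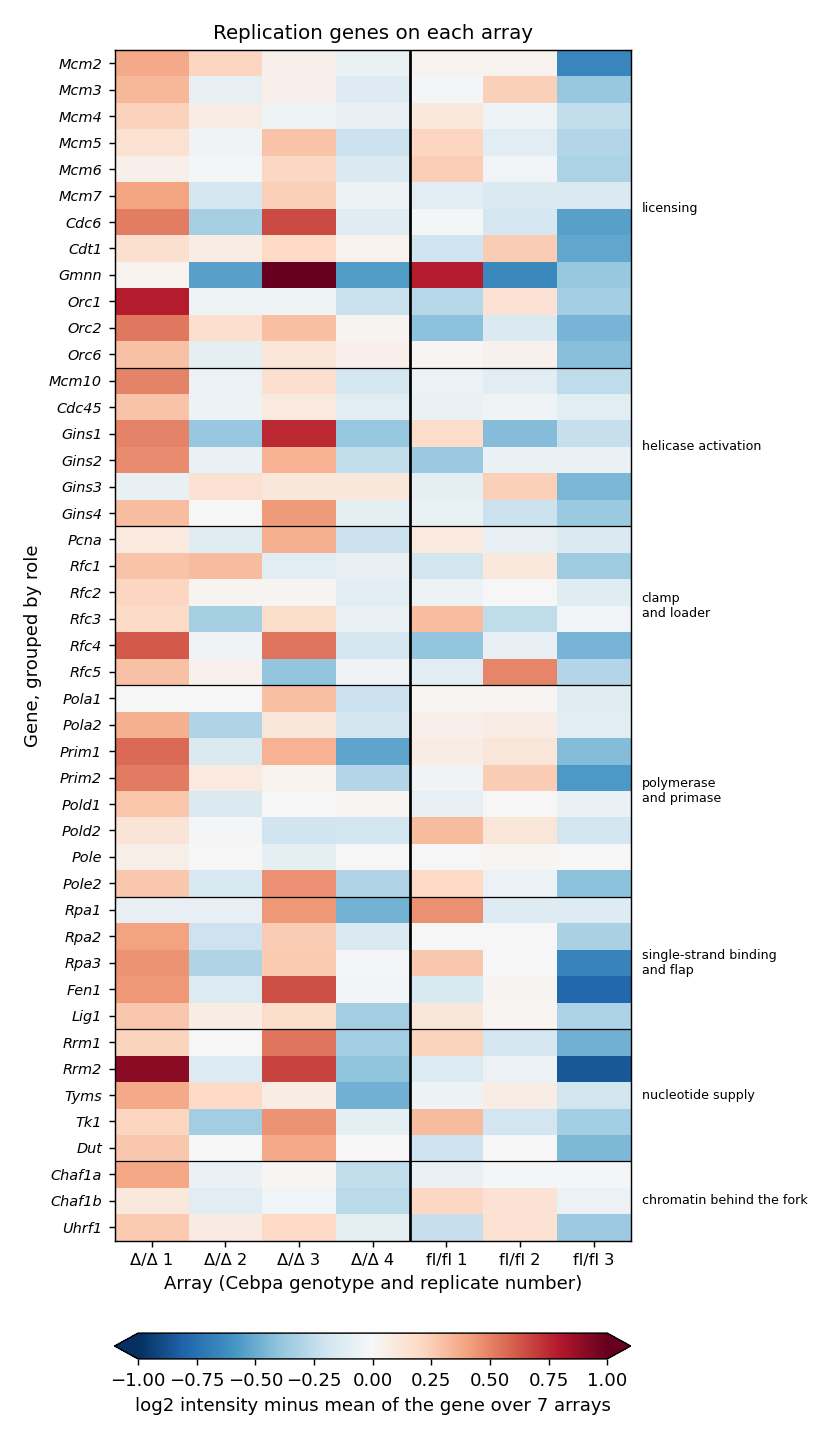
Log2 intensity of each replication gene minus its mean over 7 arrays (colour), for genes grouped by role (vertical axis) on the Cebpa Δ/Δ arrays (left of the line) and the Cebpa fl/fl arrays (right of it, horizontal axis). Colours end at 1 in either direction. Δ/Δ 1 or Δ/Δ 3 was highest for 36 of the 45 genes and fl/fl 3 lowest for 26.

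Lists of other cell types were scored on the same arrays. The score of the 20 erythroid markers was 1.43, 0.39, 1.23 and 0.45 in Cebpa Δ/Δ 1 to 4, and -1.50, -0.52 and -1.48 in Cebpa fl/fl 1 to 3, so Δ/Δ 1 and Δ/Δ 3 were again highest. Macrophage markers (10 measured, 6 higher at the study's thresholds) scored 1.0, -0.08, 0.72 and 0.11 in Cebpa Δ/Δ 1 to 4, and -0.63, -0.52 and -0.61 in Cebpa fl/fl 1 to 3. Their summed intensity was 664 to 1333 in Cebpa Δ/Δ and 394 to 529 in Cebpa fl/fl HSCs. The 12 HSC markers ran the other way, at -0.27, 0.20, -0.57 and 0.13 in Cebpa Δ/Δ 1 to 4, and 0.05, 0.19 and 0.27 in Cebpa fl/fl 1 to 3. None of the 12 HSC markers passed the study's thresholds, and their summed intensity was 4550 to 7679 in Cebpa Δ/Δ and 7208 to 7921 in Cebpa fl/fl HSCs. Lymphoid markers scored 0.42, 0.30, 0.70 and 0.10 in Cebpa Δ/Δ 1 to 4, and -0.61, -0.30 and -0.61 in Cebpa fl/fl 1 to 3. Neutrophil markers scored -1.43, -1.40, -0.65 and -1.16 in Cebpa Δ/Δ 1 to 4, and 1.64, 2.43 and 0.57 in Cebpa fl/fl 1 to 3, an order that separated the genotypes without setting Δ/Δ 1 and Δ/Δ 3 apart together. The part of erythroid, macrophage, lymphoid or neutrophil RNA in the values of the replication genes was not tested.

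The mitosis genes, most of which peak after S phase, had larger fitted changes. Of 29 measured, 9 passed the study's thresholds upward and 0 downward, with a median log2 fold change of 0.54, although whether this list differed from the replication genes was not tested. The 9 were the cyclins Ccna2 (0.63) and Ccnb2 (0.73), the spindle checkpoint kinase Bub1 (0.81), the centromeric histone Cenpa (0.73), the spindle protein Nusap1 (0.65), Birc5 (0.95) and Cdca8 (0.79) of the chromosomal passenger complex, the spindle-associated Hmmr (1.05) and the ubiquitin-conjugating enzyme Ube2c (0.90), all as log2 fold changes. The count was 2 without Δ/Δ 1, 4 without Δ/Δ 3, 4 without fl/fl 3, 5 without fl/fl 1 and 16 without Δ/Δ 4. The score of the list was 0.54, 0.15, 0.32 and -0.18 in Cebpa Δ/Δ 1 to 4, and -0.48, -0.04 and -0.31 in Cebpa fl/fl 1 to 3. Array fl/fl 1 was the lowest for 14 of the 29 mitosis genes but for 1 of the 45 replication genes, whose mean there was 0.02.

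**Figure D5:**
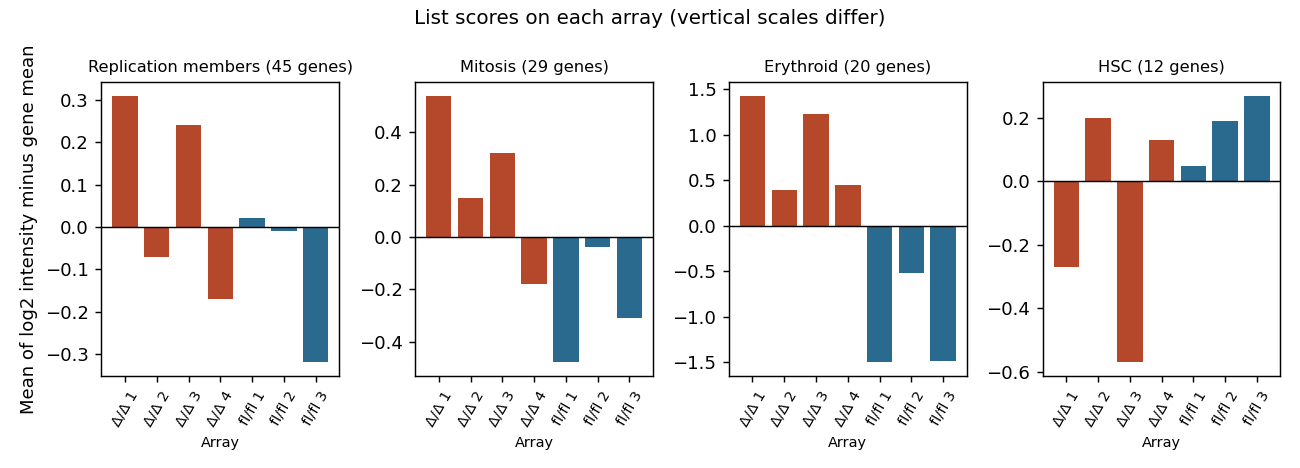
Score of 4 gene lists (mean of log2 intensity minus each gene's mean, vertical axes with their own scales) on each Cebpa Δ/Δ array (red, left) and Cebpa fl/fl array (blue, right). Replication scores of Δ/Δ 2 (-0.07) and Δ/Δ 4 (-0.17) lay below those of fl/fl 1 (0.02) and fl/fl 2 (-0.01), whereas every Cebpa Δ/Δ array exceeded every Cebpa fl/fl array for erythroid genes.

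Other genes of replication, nucleotide synthesis and fork chromatin, listed by role, gave similarly few calls. Of 64 measured, 2 passed the study's thresholds upward and 0 downward, against 1.57% and 0.617% of all genes. The median log2 fold change was 0.09, and 45 (70.3%) lay above 0, against 49.7% of all genes. Without overlap between genotypes, 3 were higher and 0 lower, against 3.51% and 2.46% of all genes. Ccne1, the cyclin E that drives entry into S phase with Cdk2, measured 8.57, 7.43, 8.22 and 7.71 in Cebpa Δ/Δ 1 to 4, and 6.56, 7.43 and 6.49 in Cebpa fl/fl 1 to 3, a log2 fold change of 1.16 (SE 0.35, limma p 0.0141, adjusted p 0.644). Dck, the deoxycytidine kinase of the salvage pathway, measured 8.08, 8.05, 8.02 and 7.83 in Cebpa Δ/Δ 1 to 4, and 7.15, 7.64 and 7.42 in Cebpa fl/fl 1 to 3, a log2 fold change of 0.59 (SE 0.13, limma p 0.00264, adjusted p 0.412). Dck did not overlap between genotypes and was even within Cebpa Δ/Δ, whereas Ccne1 was high on Δ/Δ 1 and Δ/Δ 3, as the replication genes were. The count of 2 fell to 0 without fl/fl 1 and to 1 without fl/fl 3 or any of Δ/Δ 1, Δ/Δ 2 and Δ/Δ 3. The erythroid and mitosis scores given above moved with Ccne1 too, and their part in its value was not tested.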

How the data were processed

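RNA amplified from sorted HSCs was hybridised to Affymetrix Mouse Gene 1.0 ST arrays. The deposited intensity values were computed by the authors with the Robust Multichip Average (RMA), for which the methods name Partek Genomics Suite and the submitters' processing notes RMA and affy. Because RMA equalises the probe distributions of the arrays, it hides any change in the RNA content of a cell. Values were on a linear scale (1.51 to 9840) and log2 was taken without a pseudocount. Depth has no counterpart on arrays, and the number of arrays limits the precision.

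Of 35556 probe sets, 21789 had 1 gene symbol, 1621 several and 12146 were unnamed here. The platform annotation's symbols were updated by Entrez number for 21698 probe sets. For the 999 genes with several probe sets, 3 of the replication genes among them (Pcna, Rpa3 and Tk1), the probe set with the highest mean was used. RMA left exact ties: 14 of the 45 replication genes had equal values on at least 2 arrays, against 63.6% of all genes. No pair of arrays was identical, and 0 sample columns went unused.

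The difference of Cebpa Δ/Δ from Cebpa fl/fl was fitted in limma 3.58.1 under R 4.3.3 (lmFit, then eBayes), with no covariate and with Benjamini-Hochberg adjustment across the 19938 genes. The study's thresholds were applied to limma's p because its own array test is not named. For single genes a two-sided exact permutation p was computed from the 35 possible splits of the arrays. The fit was tested on simulated data. A list score is the mean of log2 values after centring each gene. Any of the 45 genes could be named, and values on all arrays are given for those with an unadjusted p under 0.05 and, in each role group, for the one with the smallest p and the one with the highest mean. Gmnn and Rrm2 were added after their values were seen. The genes and all lists were chosen with earlier results of these data known. The labels do not say whether replicate numbers pair the arrays. Samples of the same number deviated together with r of -0.021, 0.102 and -0.185, which on so few arrays cannot exclude pairing. The labels speak of triplicates, while the samples number 4 Cebpa Δ/Δ and 3 Cebpa fl/fl. Alternatives were other scalings, weights, variance models, filters on dim genes, the mean of probe sets, a replicate block and leaving out arrays.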

Additional observations from a re-analysis of the deposited data

Results flagged for a closer look

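Of the 45 replication genes, 1 had an array that stood apart within Cebpa Δ/Δ by Dixon's criterion, which chance alone meets in about 1 in 20 groups. Gins3, a subunit of the GINS complex, measured 6.22 on Cebpa Δ/Δ 1 and 6.41 to 6.45 on the other Cebpa Δ/Δ arrays, against 6.20, 6.53 and 5.84 on Cebpa fl/fl 1 to 3, all as log2 intensity. Δ/Δ 1 was the highest array for 24 of the 45 genes, and Gins3 was low there.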

How the results depend on the processing

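The median log2 fold change of the 45 genes stayed above 0 in all 17 alternatives, from 0.06 (without fl/fl 3) to 0.27. The variance models and the filters on dim genes could not move this median (0.16 in each), so they are no check on it. In none of the alternatives did any of the 45 pass the study's thresholds downward or an adjusted p of 0.05. Their count past the study's thresholds upward, 1 (Orc2), was 2 with array medians subtracted (Orc2 and Rfc4), 0 without both fl/fl 1 and Δ/Δ 3, and 0 to 2 with single arrays left out. Subtracting array medians moved the median of all genes by 0.04 on the log2 scale. For the other replication genes the count of 2 was 1 with array weights, 0 without both arrays and 0 to 3 with single arrays left out. For mitosis genes the count of 9 was 15 with array medians subtracted, 4 without moderation of variances, 2 without both arrays and 2 to 16 with single arrays left out. With single arrays left out, Mcm6 ran from -0.09 to 0.19 (0.00 without Δ/Δ 3), Pcna from -0.04 to 0.15 and Lig1 from -0.02 to 0.24 as log2 fold changes, and Pold2 was 0.01 without both arrays. The group medians fell to -0.02 for polymerase and primase genes, -0.02 for single-strand and flap genes and -0.07 for chromatin genes at their lowest, and stayed above 0 for the other groups. With a replicate block the count was again 1 (Orc2). The median was 0.27, as without Δ/Δ 4, which the block takes out of the estimate. With fewer arrays there were fewer degrees of freedom; the cause of the other shifts was not tested.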

Other observations

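The second principal component of all genes, which held 23.3% of the variance, had its highest scores in Δ/Δ 3 (20.9) and fl/fl 1 (29), so this axis crossed the genotypes. The loading was positive for 39 of the 45 replication genes (86.7%), against 49.9% of all genes and 41.4% of mitosis genes. On the first component (35% of the variance), which separated the genotypes, it was positive for 41 of the 45 (91.1%), against 48.7% of all genes and 100% of mitosis genes. These are descriptions over the same 7 arrays, and the difference between the lists was not tested.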
